A study of Rattus norvegicus with 9 samples.

Results

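Transcripts of splicing factors and heterogeneous nuclear ribonucleoproteins (hnRNPs) were examined in retinas of rats made diabetic with streptozotocin (STZ), a toxin of pancreatic beta cells, and in retinas of vehicle-injected rats (Control). Probes were taken whose gene symbol in the array annotation begins with Srsf and a digit, Hnrnp, Snrp, Sf3a, Sf3b or U2af, and 36 of 22226 probes matched, 1 for each of 36 of the 12978 genes with a symbol. A probe was tested when every array of the STZ group, of the Control group or of both gave it a detection p under 0.05, which held for 33 of the 36 and for 10261 probes in all. All animals were male Sprague-Dawley rats. The STZ group (n = 4) had been given 65 mg/kg STZ into the peritoneum in a citrate buffer and kept a blood glucose above 250 mg/dL, and the Control group (n = 5) had been given the citrate buffer alone. Age is not stated in the sample labels. Each array held the total RNA of 1 whole retina sample, so that fewer cells of a type cannot be told apart from less RNA per cell.

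Introns are removed from pre-mRNA by the spliceosome, a machine of small nuclear ribonucleoproteins (snRNPs) in which each small nuclear RNA is held by a ring of Sm proteins and by proteins of its own. The SF3a and SF3b complexes are parts of the U2 snRNP, which pairs with the branch point of the intron, and the U2AF heterodimer marks the end of the intron for it. SR proteins, whose symbols begin with Srsf, bind exonic enhancers and favour inclusion of the exon, whereas many hnRNPs coat nascent RNA and favour skipping, and the balance between both kinds sets much of alternative splicing. Neurons, photoreceptors among them, splice many exons that other tissues skip, and inherited defects in general snRNP proteins are a known cause of retinal degeneration in humans.

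The promoters of the 3 genes with the smallest p-values, Snrpn, Sf3b3 and Srsf6, are shown because all 3 were lower in STZ retinas and are described first below. Each window is the 250 bases before the gene's start as the RefSeq promoter table for the rat genome GRCr8 places it, written 5′ to 3′ on the strand of the gene. For Sf3b3 that start lies downstream of the outer end of the annotated gene, so 19 bases of its window lie inside the gene. Capitals mark the motifs searched on both strands, with no overlaps among the marked letters. The motif GGGCGG is known as the GC box. The motif CCAAT is bound by the factor NF-Y. The motif CGGAAG is the core of sites bound by ETS factors. The motif TATAAA is known as the TATA box. A motif on the other strand stands as its reverse complement in capitals.
Snrpn (chr1:120338920-120339169, minus strand): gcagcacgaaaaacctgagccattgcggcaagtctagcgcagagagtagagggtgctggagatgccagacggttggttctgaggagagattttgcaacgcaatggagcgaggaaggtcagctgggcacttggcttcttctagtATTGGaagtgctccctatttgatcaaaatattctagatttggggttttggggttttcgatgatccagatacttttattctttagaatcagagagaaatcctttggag
Sf3b3 (chr19:55729622-55729871, minus strand): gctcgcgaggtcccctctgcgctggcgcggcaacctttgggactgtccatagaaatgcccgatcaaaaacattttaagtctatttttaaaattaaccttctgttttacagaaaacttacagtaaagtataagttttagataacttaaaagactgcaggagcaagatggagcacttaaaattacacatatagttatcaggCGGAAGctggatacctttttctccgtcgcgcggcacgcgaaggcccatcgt
Srsf6 (chr3:172008822-172009071, plus strand): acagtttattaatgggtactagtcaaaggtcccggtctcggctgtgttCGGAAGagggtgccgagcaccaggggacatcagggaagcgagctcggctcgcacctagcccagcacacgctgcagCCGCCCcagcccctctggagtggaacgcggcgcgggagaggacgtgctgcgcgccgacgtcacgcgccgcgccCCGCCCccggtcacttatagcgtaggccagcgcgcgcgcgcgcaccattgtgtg

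The windows had no motif in common to all 3. Snrpn held 1 CCAAT box, Sf3b3 held 1 ETS core, and Srsf6 held 2 GC boxes and 1 ETS core. The GC content was 46.4% for Snrpn, 43.6% for Sf3b3 and 67.6% for Srsf6. A window was found for 32 of the 33 tested members and for 5979 of the 7197 genes with a tested probe. Of the members, 21 (65.6%) held a GC box, 16 a CCAAT box, 15 (46.9%) an ETS core and 5 (15.6%) a TATA box. Of all genes with a tested probe, 59.1% held a GC box, 35.9% a CCAAT box, 27.8% an ETS core and 6.74% a TATA box. Of all 27457 windows, 32.4% held a GC box, 34.3% a CCAAT box, 14.7% an ETS core and 13.1% a TATA box. The median GC content was 61.2% for the members and 60.0% for the genes with a tested probe. These are descriptions of the letters, with no test.

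RNA was hybridized to RatRef-12 BeadChips (Illumina), on which each probe is carried by many beads. BeadChip 1 held Controls 1 to 3, and BeadChip 2 held STZ 1 to 4 and Controls 4 and 5, so that within BeadChip 2 both groups can be compared. Before normalization the arrays had median intensities of 76.9 to 87.9 in STZ and 70.0 to 84.4 in Control, and 11207 to 11609 probes were detected in STZ and 10843 to 11524 in Control. All 33 tested members were detected on 9 of 9 arrays. The other 3 were at background. Snrpd1, a core Sm protein, was detected on 1 STZ and 2 Control arrays, and Snrpc, the protein of the U1 snRNP that contacts the start of the intron, and Hnrnpr were each detected on 0 STZ and 1 Control arrays. Levels below are log2 intensities after background correction and quantile normalization between arrays, differences are STZ minus Control on that scale, and ± gives the SD. Adjusted p-values come from limma's moderated test over all 10261 tested probes, with a threshold of 0.05.

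Few of these transcripts differed between the groups. Of the 33 members, 0 rose in STZ retinas and 2 fell, Snrpn and Sf3b3, against a background of 4.84% of all tested probes that rose and 4.45% that fell. Snrpn and Sf3b3 were also the only members whose STZ and Control values did not overlap, again both lower (0 members higher, against 6.6% of all tested probes, and 2 lower, against 6.41%). With 33 members these counts lie near the background shares and are no result about the members as a group. At an unadjusted p under 0.05, 0 members were higher and 5 lower, namely Snrpn, Sf3b3, Srsf6, Sf3a3 and Srsf7, against 10.8% and 14.5% of all tested probes. The thresholds of the methods, an unadjusted p under 0.05 and a 1.2-fold change, were applied to limma's p and the values normalized here. With them 0 members were higher and Snrpn alone was lower, against 5.55% and 4.46% of all tested probes.

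The differences were small. They ran from -0.29 (Snrpn) to 0.20 (Hnrnpk) with a median of -0.04, whereas over all tested probes they ran from -1.38 to 5.71 with a median of -0.01. The difference was above 0 for 13 members and below 0 for 20 (60.6%, against 57.8% of all tested probes). The 95% interval lay within 1.5-fold either way for 33 of 33 members (92.4% of all tested probes) and within 1.2-fold for 16 (48.5%, against 60.1%), and for the others it reached beyond a 1.2-fold change in at least 1 direction. The median SE of the difference was 0.07 for the members and 0.06 for all tested probes. STZ retinas varied more than Controls for 24 of the 33 members (72.7%, against 63.4% of all tested probes).

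**Figure D1:**
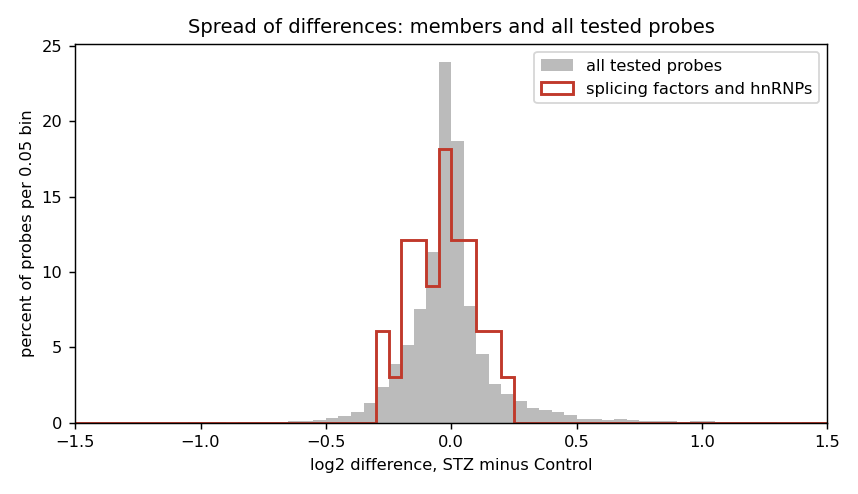
Histogram of the difference, STZ minus Control, on the log2 scale (x axis, bins of 0.05) as a percent of probes (y axis), for the 33 members (red outline) and all 10261 tested probes (grey). The members lie between -0.29 and 0.20, inside the spread of all probes, of which 26 fall outside the plotted range.

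Among the snRNP proteins, Snrpn fell. Snrpn encodes SmN, which takes the place of the general SmB proteins in the Sm ring of neurons, and is an imprinted gene expressed from the paternal allele. Its level was 13.23, 13.42, 13.44 and 13.45 in STZ 1 to 4, against 13.76, 13.64, 13.64, 13.62 and 13.69 in Controls 1 to 5. Every STZ value lay below every Control value, with STZ 1 apart from the other STZ retinas on the low side. The mean was 13.38 ± 0.11 in STZ and 13.67 ± 0.05 in Control, a difference of -0.29 (SE 0.05, 95% interval -0.40 to -0.17, adjusted p = 0.0140), and in linear terms the level fell by 18.0%. Without STZ 1 the difference was -0.23 (adjusted p = 0.0126).

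Snrpn passed the test in 16 of 20 alternative settings, including each of the 9 in which 1 array was left out, and its difference was between -0.30 and -0.18 in all 20. The call was lost with BeadChip as a block (-0.27, adjusted p = 0.112), within BeadChip 2 (adjusted p = 0.205), with the replicate number as a block (-0.28, adjusted p = 0.119) and with arrays scaled to a common median in place of quantile normalization (-0.18, adjusted p = 0.474). RefSeq lists 4 pseudogene loci of Snrpn, whose part in the probe's signal was not tested.

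The other snRNP members did not pass. Snrpa, the protein of the U1 snRNP that binds a stem loop of its RNA, was at 9.82 ± 0.12 in STZ and 9.92 ± 0.06 in Control (difference -0.10, adjusted p = 0.349). Snrpb2, its counterpart in the U2 snRNP, was at 8.41 ± 0.15 in STZ and 8.33 ± 0.09 in Control (difference 0.07, adjusted p = 0.586).

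Of the 5 subunits of SF3a and SF3b measured, 4 were below 0 and Sf3b3 fell. Sf3b3 is a scaffold of SF3b and is also found in a histone acetyltransferase complex. It was at 10.87, 11.17, 11.09 and 11.10 in STZ 1 to 4, against 11.35, 11.31, 11.20, 11.37 and 11.25 in Controls 1 to 5. The groups did not overlap, but the highest STZ value, STZ 2, lay close under the lowest Control, Control 3, and STZ 1 was the lowest of all. The difference was -0.24 (SE 0.06, 95% interval -0.38 to -0.10, adjusted p = 0.0484), and in linear terms the level fell by 15.3%. Sf3b3 stood at the threshold: it passed in 3 of 20 alternatives (an offset of 50, a detection p under 0.01, and without STZ 2), and leaving out any other single array ended the call, with adjusted p up to 0.110. Its difference kept its sign in all 20, some of which share the same difference, and lay between -0.27 and -0.18. It was -0.25 with BeadChip as a block (adjusted p = 0.189) and within BeadChip 2 (adjusted p = 0.296).

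Sf3a3, the SF3a subunit that bridges toward SF3b, was at 10.21, 10.28, 10.34 and 10.37 in STZ 1 to 4, against 10.47, 10.32, 10.59, 10.48 and 10.44 in Controls 1 to 5. Control 2 lay among the STZ values and the other 4 Controls above them, and the difference of -0.16 did not pass (SE 0.06, adjusted p = 0.117). Sf3a1, which connects the U2 snRNP to the U1 snRNP, was at 8.33 ± 0.16 in STZ and 8.50 ± 0.09 in Control (difference -0.17, adjusted p = 0.215), and STZ 1, at 8.53, lay above 3 of the 5 Controls. Sf3b2 differed by -0.05 (adjusted p = 0.774). Sf3b1, which clamps the branch point, was the subunit above 0, at 8.86 ± 0.13 in STZ and 8.70 ± 0.19 in Control (difference 0.16, adjusted p = 0.384).

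Among the 9 SR proteins none passed the test, and 6 were below 0, with a median difference of -0.11. Srsf6, a general SR protein that binds exonic enhancers, came nearest. Its level was 11.85, 11.94, 12.20 and 11.93 in STZ 1 to 4, against 12.26, 12.14, 12.19, 12.19 and 12.36 in Controls 1 to 5. STZ 3 lay within the Control range and the other 3 STZ retinas below it. The difference was -0.25 (SE 0.07, 95% interval -0.42 to -0.08, adjusted p = 0.0732), and without STZ 3 it was -0.32 and passed (adjusted p = 0.0196).

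Srsf7, an SR protein with a zinc knuckle that also hands spliced mRNA to the export machinery, was at 7.47, 7.49, 7.55 and 7.60 in STZ 1 to 4, against 7.69, 7.50, 7.64, 7.75 and 7.71 in Controls 1 to 5. Only Control 2 lay among the STZ values. The difference was -0.13 (SE 0.05, adjusted p = 0.151), and without Control 2 it was -0.17 and passed (adjusted p = 0.0401). Srsf3, a small SR protein with roles in export and in the choice of polyadenylation site, was at 8.29 ± 0.07 in STZ and 8.40 ± 0.09 in Control (difference -0.11, adjusted p = 0.206). Srsf5 differed by -0.19 with a wide spread (STZ SD 0.22, Control SD 0.19, adjusted p = 0.404) and Srsf11 by -0.12 (adjusted p = 0.346).

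The other 4 SR proteins had adjusted p-values of 0.570 or more. Srsf10, a repressor of splicing when dephosphorylated, differed by -0.04 (adjusted p = 0.623) and Srsf12, a relative that counteracts SR proteins, by 0.01 (adjusted p = 0.921). Srsf2, a marker of nuclear speckles, differed by 0.08 (adjusted p = 0.620) and Srsf9 by 0.11 (adjusted p = 0.570). The 2 last differences rested on STZ 1, which had 10.46 for Srsf2 and 9.06 for Srsf9, the highest of the 9 arrays for both genes, and without it they were -0.0070 and -0.0034.

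**Figure D2:**
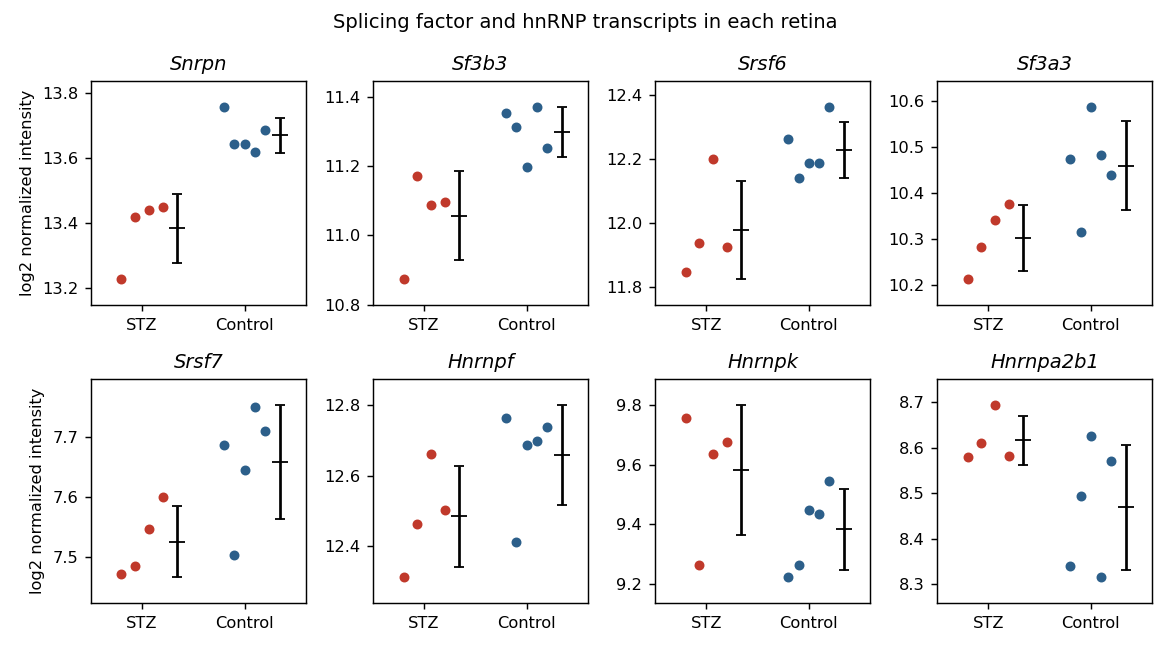
Log2 normalized intensity (y axis, own scale in each panel) of 8 members in STZ 1 to 4 (red) and Controls 1 to 5 (blue), each point 1 retina, with the mean and SD to the right of each group. Snrpn and Sf3b3 are the panels in which the groups do not overlap, and in the Hnrnpk panel STZ 2 lies apart from the other 3 STZ retinas.

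The 15 tested hnRNPs were divided about 0, with 8 above and 7 below, a median difference of 0.04 and a range of -0.17 to 0.20. The lowest adjusted p was 0.224. Hnrnpf, a G-tract binding protein, is one whose protein the study measured. Its transcript was at 12.31, 12.46, 12.66 and 12.50 in STZ 1 to 4, against 12.76, 12.41, 12.69, 12.70 and 12.74 in Controls 1 to 5. Control 2 fell among the STZ values and apart from the other Controls, which all lay above the STZ retinas. The difference was -0.17 (SE 0.09, adjusted p = 0.260), and without Control 2 it was -0.23 (adjusted p = 0.0862).

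Under the main processing, the hnRNPs with the largest differences above 0 were Hnrnpk, Hnrnpd and Hnrnpa2b1. In the processed values, Hnrnpab was at 0.18 rather than 0.04, beside 0.17 for Hnrnpk, 0.16 for Hnrnpd and 0.13 for Hnrnpa2b1. Hnrnpk, which binds C-rich RNA and DNA, was at 9.76, 9.26, 9.64 and 9.68 in STZ 1 to 4, against 9.22, 9.26, 9.45, 9.44 and 9.55 in Controls 1 to 5. STZ 2 lay at the low end of the Controls and the other 3 STZ retinas above all of them. The difference was 0.20 (SE 0.11, adjusted p = 0.292). Without STZ 2 it was 0.30 and passed (adjusted p = 0.0475), the only setting in which a member rose past the adjusted threshold, and with BeadChip as a block it was 0.09 (adjusted p = 0.797).

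Hnrnpd, known for binding AU-rich elements that mark mRNA for decay, was at 9.32 ± 0.19 in STZ and 9.13 ± 0.18 in Control (difference 0.19, adjusted p = 0.341). Hnrnpa2b1, which carries mRNA into neuronal processes, was at 8.58, 8.61, 8.69 and 8.58 in STZ 1 to 4, against 8.34, 8.49, 8.62, 8.32 and 8.57 in Controls 1 to 5. All 4 STZ values lay above the Control mean, yet Control 3 lay within them, and the difference of 0.15 did not pass (SE 0.07, adjusted p = 0.224). Hnrnpa3, a relative with a similar role, had 12.46 ± 0.22 in STZ and 12.55 ± 0.10 in Control (difference -0.10, adjusted p = 0.611).

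Hnrnpa1, the classic binder of exonic silencers, differed by -0.03 (adjusted p = 0.867, interval -0.23 to 0.16) and Hnrnpl, which binds CA repeats, by -0.08 (adjusted p = 0.629). Hnrnph3 and Hnrnpm differed by 0.10 and 0.08 (adjusted p = 0.420 and 0.429), Hnrnpul2 and Hnrnpdl by 0.05 and 0.04, and Hnrnph1 by -0.05. Hnrnph2 and Hnrnpul1 were closest to 0, with means of 7.29 and 8.05 in STZ and 7.30 and 8.05 in Control. For Hnrnpa1, RefSeq lists 51 pseudogene loci, the most of any member, and 113 are listed for 18 of the 36 members together. The sequences of the members' probes were not used here, so the share of signal from such copies was not tested.

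The 1 U2AF member was U2af1l4, a relative of the small U2AF subunit that can replace it. It was at 9.84, 9.76, 9.35 and 9.46 in STZ 1 to 4, against 9.70, 9.77, 9.83, 9.69 and 9.64 in Controls 1 to 5. STZ 3 and STZ 4 lay below all Controls and STZ 1 above them, and the difference was -0.12 (SE 0.10, 95% interval -0.35 to 0.10), which did not pass.

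**Figure D3:**
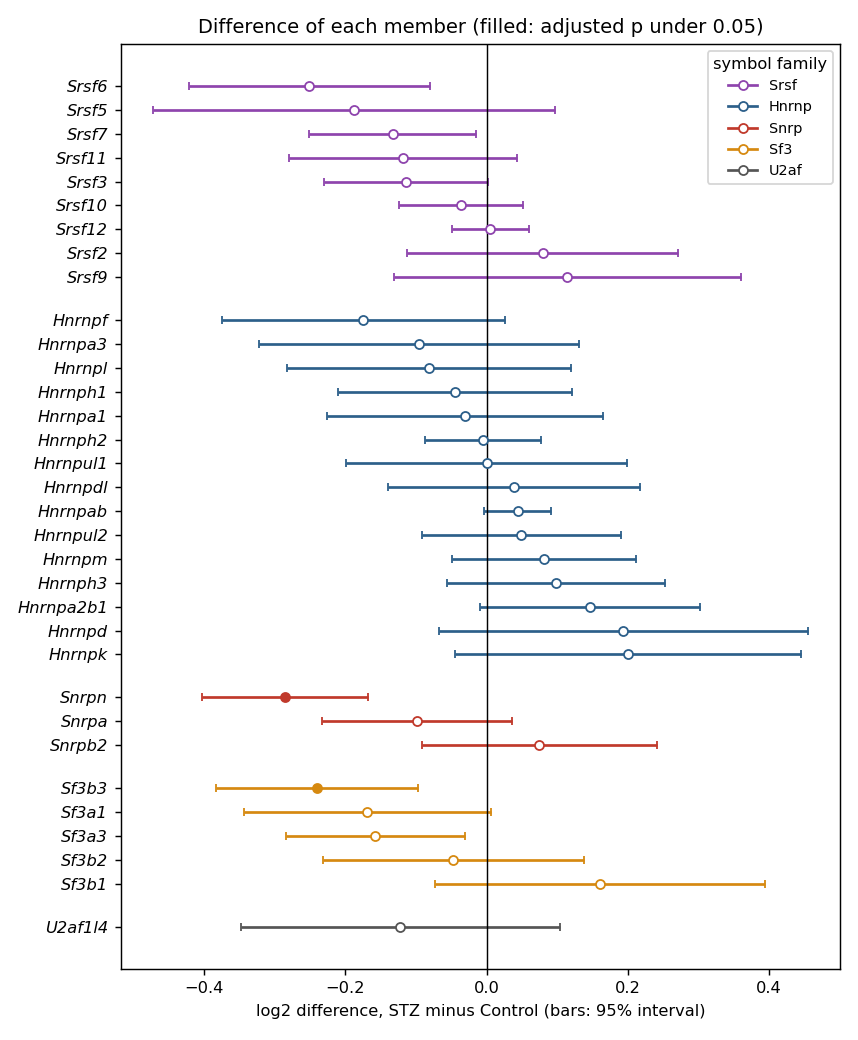
Difference, STZ minus Control, on the log2 scale (x axis) with its 95% interval for each of the 33 members (y axis, by family and by size), filled where the adjusted p was under 0.05. Snrpn and Sf3b3 are filled, and the hnRNPs lie on both sides of 0 between -0.17 and 0.20.

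By family, 6 of 9 SR proteins, 2 of 3 snRNP members, 4 of 5 SF3 subunits and 7 of 15 hnRNPs were below 0, beside 57.8% of all tested probes, and no test was made of these small families. Averaged over members as deviations from the Control mean, the 5 SF3 subunits lay at -0.12 to -0.07 in the 4 STZ retinas, against -0.06 to 0.05 in the 5 Controls. The 3 snRNP members lay at -0.15 to -0.08 in STZ and -0.04 to 0.03 in Control. The mean of the 3 snRNP members includes Snrpn at -0.29, whereas Snrpa was at -0.10 and Snrpb2 at 0.07. That of the 5 SF3 subunits includes Sf3b3 at -0.24, beside Sf3a1 at -0.17, Sf3a3 at -0.16, Sf3b2 at -0.05 and Sf3b1 at 0.16. No mean was taken without Snrpn or Sf3b3. The SR proteins lay at -0.11 to -0.04 in STZ and -0.05 to 0.06 in Control, and the hnRNPs at -0.04 to 0.07 in STZ and -0.04 to 0.03 in Control. The family medians kept their signs in all 20 alternatives, some of which share the same differences. With median scaling they were -0.05 for SR proteins, 0.06 for hnRNPs, -0.08 for snRNP members and -0.10 for SF3 subunits. With median scaling 17 of the 33 members were below 0, beside 46.9% of all tested probes.

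**Figure D4:**
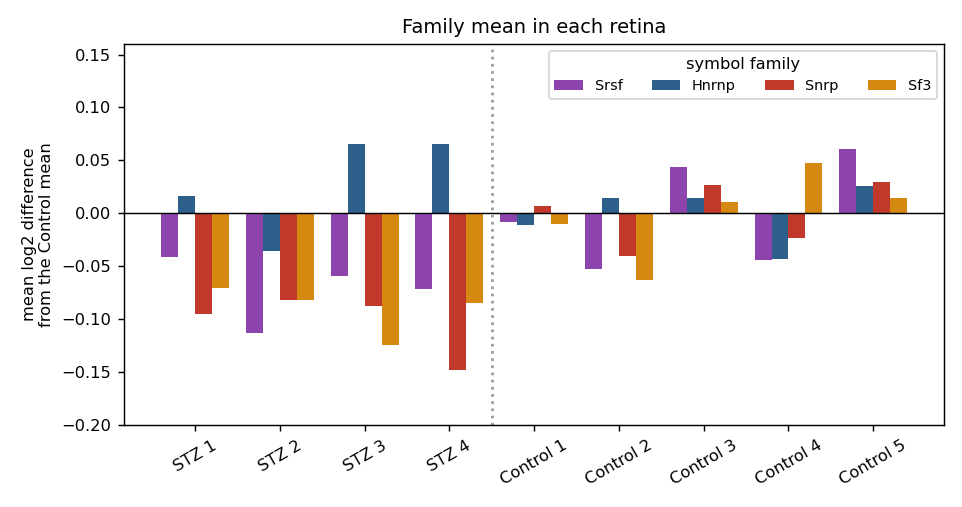
Mean deviation from the Control mean on the log2 scale (y axis) of the members of 4 families in each retina (x axis, STZ left of the dotted line and Control right of it). Bars of the Snrp and Sf3 families reach -0.15 and -0.12 in STZ retinas and stay at or above -0.06 in Controls, while the Hnrnp bars lie on both sides of 0. The Snrp bars include Snrpn and the Sf3 bars include Sf3b3, the 2 members that passed.

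The values of some dim members depended on the background level. The background correction took its level from the negative controls that the detection p implies, whose mean was 70.0 to 86.2 and SD 141 to 215 on an array, whereas their median was 52.8 to 62.5 and their median absolute deviation (MAD) 8.60 to 11.0. With the median and MAD in place of the mean and SD, a setting added after the data were seen, Hnrnpab, which was at 7.19 ± 0.02 in STZ and 7.15 ± 0.02 in Control, differed by 0.29 (interval 0.08 to 0.50, adjusted p = 0.0815) rather than by 0.04 (adjusted p = 0.237), and Srsf7 differed by -0.27 (adjusted p = 0.148). Snrpn still fell (-0.28, adjusted p = 0.0398) and Sf3b3 did not pass (-0.23, adjusted p = 0.0997). In that setting the interval lay within 1.5-fold for 33 of 33 members and within 1.2-fold for 6. In the processed values and without background correction, Hnrnpab differed by 0.18 each time (adjusted p = 0.122 and 0.124). Srsf7 differed by -0.22 in both (adjusted p = 0.134 and 0.137). Srsf10 and Hnrnpul2 were at -0.10 and 0.10 in the processed values and at -0.14 and 0.13 with the median and MAD, and passed in neither. Hnrnph2 and Srsf12, also dim, stayed near 0 with the median and MAD, at 0.00020 and 0.030.

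Other genes of the splicing pathway were taken from 6 lists, chosen with earlier results of these data known. Of 152 genes tested, 1 rose (0.658%, against 4.84% of all tested probes) and 8 fell (5.26%, against 4.45%). The difference was below 0 for 115 (75.7%, against 57.8% of all tested probes), with a median of -0.06. With median scaling, 97 of the 152 were below 0 (63.8%, against 46.9% of all tested probes), and 0 rose or fell. With that scaling 77 of all 10261 probes passed. Leaving out single arrays gave 1 to 3 that rose and 0 (without STZ 3) to 8 (without STZ 2) that fell. Within BeadChip 2 the counts were 0 and 0, where 11 of all 10261 probes passed. There 110 of 152 were below 0 (72.4%, against 57.2% of all tested probes). No test was made of a list as a set.

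Over all tested probes 4.84% rose, 4.45% fell and 57.8% were below 0. Spliceosome core proteins outside the symbol rule gave 0 that rose and 4 that fell among 58, with 46 (79.3%) below 0. These were Smndc1, a factor of spliceosome assembly (-0.39, adjusted p = 0.0307), Bud13, known in yeast for retaining unspliced RNA in the nucleus (-0.27, adjusted p = 0.0309), Plrg1, a partner of the Prp19 complex (-0.28, adjusted p = 0.0315), and Prpf3, a protein of the U4/U6 snRNP (-0.35, adjusted p = 0.0481). Smndc1 was at 9.35, 9.58, 9.70 and 9.72 in STZ 1 to 4, against 10.10, 9.79, 9.99, 10.08 and 9.94 in Controls 1 to 5, and the groups did not overlap. The list's mean level on an array was 9.36 to 9.40 in STZ and 9.45 to 9.48 in Control. The count of 4 became 0 without STZ 3, Control 3, Control 4 or Control 5, and 1 without STZ 1 or Control 2. It was also 0 with median scaling, both BeadChip settings, the replicate block, no detection filter and the methods' t-test. Of 20 alternatives, Smndc1 passed in 8, Plrg1 in 7, and Bud13 and Prpf3 in 5 each.

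Human mutations of Prpf3 and of other proteins of the tri-snRNP cause retinitis pigmentosa. Of 6 such genes, listed after the values were seen, 5 were tested, and Prpf3 alone passed. Prpf3 passed in 5 of 20 alternatives, 2 of them among the 9 that left out an array. It did not pass with BeadChip as a block (adjusted p = 0.203), within BeadChip 2 (adjusted p = 0.238) or with median scaling (adjusted p = 0.375). Prpf3 was at 9.08, 9.38, 9.05 and 9.30 in STZ 1 to 4, against 9.34, 9.71, 9.60, 9.51 and 9.61 in Controls 1 to 5, so that STZ 2 overlapped with Control 1. Prpf4 differed by -0.20 (adjusted p = 0.251), and Snrnp200, Prpf8 and Prpf31 by -0.07, -0.07 and -0.02 (adjusted p of 0.382 or more). With median scaling, Prpf8 and Prpf31 turned to 0.02 each.

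Against 4.84% and 4.45% of all tested probes, 0 of 28 SR kinases and SR-like factors rose and 2 fell, with 24 below 0 (85.7%, against 57.8%). These were Scaf8, which binds the tail of RNA polymerase II (-0.19, adjusted p = 0.0484), and Rbm10, a regulator of exon skipping (-0.22, adjusted p = 0.0484), each of which passed in 4 or fewer of 20 alternatives. Next came Acin1 (-0.17, adjusted p = 0.0729) and Clk1, a kinase of SR proteins (-0.30, adjusted p = 0.0829). Of 13 genes of the exon junction complex and mRNA export, Upf2, a factor of nonsense-mediated decay, fell (-0.20, adjusted p = 0.0178). Upf2 was at 7.47 to 7.51 in STZ and 7.60 to 7.77 in Control, without overlap. Its call was lost without STZ 3 (adjusted p = 0.0518), with BeadChip as a block (-0.17, adjusted p = 0.144), within BeadChip 2 (adjusted p = 0.102), with the replicate block (-0.21, adjusted p = 0.0995) and with median scaling (-0.15, adjusted p = 0.592). Its difference was -0.34 in the processed values and -0.42 with the median and MAD of the negative controls, and it passed in both. Casc3 and Rbm8a, proteins of the exon junction complex, differed by -0.06 (adjusted p = 0.152) and -0.23 (adjusted p = 0.183), and Nxt1, a partner of the mRNA export receptor, by -0.18 (adjusted p = 0.337). Casc3 differed by -0.21 in the processed values (adjusted p = 0.0762). With the median and MAD it differed by -0.33 and passed (adjusted p = 0.0485).

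Of 30 other regulators, 1 rose and 1 fell, against 4.84% and 4.45% of all tested probes. Khdrbs3, a neuronal regulator of neurexin splicing, was the gene that rose. It was at 10.74, 10.52, 10.88 and 10.76 in STZ 1 to 4, against 10.24, 10.24, 10.30, 10.23 and 10.41 in Controls 1 to 5, with no overlap. The difference was 0.44 (adjusted p = 0.00972), it passed in each of the 9 settings that left out an array, and with BeadChip as a block it was 0.41 and did not pass (adjusted p = 0.0874). It also did not pass within BeadChip 2 (adjusted p = 0.201) or with median scaling (0.43, adjusted p = 0.334). Rbfox1, a neuronal splicing regulator, fell by 0.20 on the log2 scale (adjusted p = 0.0345) and passed in 3 of 20 alternatives. Elavl1, which stabilizes AU-rich mRNA, differed by -0.22 (adjusted p = 0.0560) and Celf4 by -0.15 (adjusted p = 0.183).

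Of 16 genes of snRNP assembly, 0 passed (against 9.3% of all tested probes) and 11 were below 0 (68.8%, against 57.8%). Smn1, which with the gemins loads Sm rings onto small nuclear RNA, differed by -0.26 (adjusted p = 0.0521), Gemin7 by -0.27 (adjusted p = 0.0764), Gemin6 by -0.29 (adjusted p = 0.0936) and Gemin4 by 0.10 (adjusted p = 0.0772). Lsm proteins form rings like those of the Sm proteins. Of the 7 tested, 0 passed and 7 were below 0, beside the same shares of all tested probes. Lsm10, which belongs to the U7 snRNP of histone mRNA processing, differed by -0.16 (adjusted p = 0.0901). Lsm4, Lsm6 and Lsm7, of the rings on U6 snRNA and in mRNA decay, differed by -0.10, -0.11 and -0.10 (adjusted p = 0.325, 0.361 and 0.412), and Lsm4 passed without STZ 1 (adjusted p = 0.0385).

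Markers of retinal and other cells moved between the same groups, beside 4.84% of all tested probes that rose and 4.45% that fell. Rod markers fell for 5 of 13 tested genes (18 listed), with 13 of 13 below 0 and a median of -0.24, and their summed intensity was 106523 to 112724 in STZ and 118663 to 122428 in Control. Rods are the most numerous cells of the rat retina. Lens fibre genes rose for 9 of 10, with a summed intensity of 64561 to 98962 in STZ and 5037 to 15047 in Control. Müller glia stress genes rose for 8 of 9, with 20132 to 33613 in STZ and 4899 to 6729 in Control, and Socs3 was detected on none of the arrays. Microglia genes rose for 2 of 6, with 1323 to 1633 in STZ and 1170 to 1451 in Control, and of pigment epithelium, blood, extraocular muscle and endothelium 0 of 3 each passed, with Alas2, Myh4, Cdh5 and Tek detected on none of the arrays. The part of these cells in the splicing factor values was not tested.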

How the data were processed

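Total RNA of 9 rat retinas (4 STZ, 5 Control) was hybridized to RatRef-12 BeadChips. The authors deposited average bead signals as linear intensity values without normalization, each with a detection p-value, and a second table of processed intensity values, quantile normalized on a linear scale as its sorted columns show (they differ by a median of 0.210%). The submitters' processing notes name GenomeStudio 1.0.6. The methods called a probe by t-test where its unadjusted p was under 0.05 and its change 1.2-fold.

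The analysis used limma 3.58.1 in R 4.3.3, and figures were drawn in Python 3.11.15 with matplotlib 3.10.9. Intensities were corrected by normexp against negative controls inferred from the detection p, with an offset of 16, quantile normalized and set on the log2 scale. An offset understates differences of dim probes. Probes detected (p under 0.05) on every array of STZ, of Control or of both were compared between groups by limma's moderated test, two-sided, with Benjamini-Hochberg adjustment over all 10261. The test was checked on simulated data. Labels name the arrays as replicates of a group, and p-values measure the spread between these retinas, whose number limits the precision.

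Symbols come from the platform annotation, in which 13192 probes have 1 symbol and 9034 none. All 36 members were found in the RefSeq annotation of GRCr8 by gene identifier. Members, lists and named genes were chosen with earlier results of these data known. Named are members past the test, the 4 largest differences each way, the brightest member of each family, Hnrnpf and the 4 genes of each list with the smallest p. Other members are named to account for all of them, after their values were seen. The brightest tested probe stands for a gene of a list.

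Alternatives were the processed values, no background correction, median scaling, an offset of 50, detection p under 0.01 or no filter, BeadChip as a block, BeadChip 2 alone, the replicate number as a block, the methods' t-test and thresholds, and each array left out. A background from the median and MAD of the negative controls was added after the data were seen.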

Additional observations from a re-analysis of the deposited data

Results flagged for a closer look

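A retina apart from the others of its group was found in 6 of 66 groups of 4 or 5 values, where chance alone gives about 1 in 20. Snrpn was lowest in STZ 1, at 13.23 against 13.42 in the nearest STZ retina. Hnrnpa1 was highest in STZ 4, at 8.28, with the lowest STZ retina at 7.96. Hnrnpul2 was also highest in STZ 4, at 7.64 against 7.44 in the nearest STZ retina. Hnrnpab was lowest in STZ 2, at 7.17 against 7.20. Hnrnpdl was highest in Control 1, at 10.16 against 10.04, and Hnrnpf lowest in Control 2, at 12.41 against 12.69. No explanation of these values was tested.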

How the results depend on the processing

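The 2 members lower in STZ numbered 2 with an offset of 50 or a detection p under 0.01, 1 with the processed values, no background correction, the median and MAD of the negative controls, no detection filter, the methods' t-test or the methods' thresholds (Snrpn each time), and 0 with median scaling, BeadChip as a block, within BeadChip 2 and the replicate block. Leaving out 1 array gave 1 to 2 lower members (Snrpn each time, with Sf3b3 without STZ 2, Srsf6 without STZ 3 and Srsf7 without Control 2) and 0 to 1 higher (Hnrnpk without STZ 2). The median difference of members was -0.04, and it was -0.0056 with BeadChip as a block and within BeadChip 2 and between -0.051 and -0.011 when 1 array was left out. Over all probes 954 passed, against 77 with median scaling (87.0% of them higher, against 52.1%), 578 without a filter, 535 by the t-test, 257 with the replicate block, 179 with BeadChip as a block (70.4% higher), 11 within BeadChip 2 (72.7% higher) and 918 with the median and MAD (62.3% higher). The replicate numbers only name the samples: deviations of same-numbered STZ and Control retinas correlated at -0.08, 0.16, -0.07 and 0.15. The replicate block, which also left out Control 5, changed no call of a member other than those of Snrpn and Sf3b3. Of 1220 single-gene values over 61 genes, 1041 kept sign and side of the threshold, 134 lost a call, 13 gained one and 32 changed sign, none of them of a gene that had passed. A changed filter or the t-test cannot change a gene's difference, and both BeadChip settings share the same one. Signs changed with median scaling in Hnrnpul1 (0.086), Hnrnpa1 (0.036), Prpf31 (0.023), Hnrnph2 (0.021) and Prpf8 (0.015), with BeadChip as a block and within BeadChip 2 in Hnrnpul1 (0.053), Sf3b2 (0.048) and Hnrnpl (0.011), with the replicate block in Hnrnph2 (0.014), with an offset of 50 in Hnrnpul1 (0.00062) and with the median and MAD in Hnrnph2 (0.00020). When 1 array was left out, signs changed within the ranges -0.087 to 0.050 for Hnrnpul1, -0.103 to 0.019 for Hnrnpa1, -0.026 to 0.015 for Hnrnph2, -0.081 to 0.025 for Sf3b2, -0.011 to 0.013 for Srsf12, -0.042 to 0.099 for Hnrnpdl, -0.107 to 0.0028 for Hnrnph1, -0.0070 to 0.139 for Srsf2, -0.0034 to 0.172 for Srsf9, -0.0031 to 0.086 for Hnrnpul2 and -0.041 to 0.00021 for Prpf31. Of the rod markers, 5 fell, against 0 with median scaling and within BeadChip 2, 1 with BeadChip as a block and 2 with the replicate block. The causes were not tested.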
